A study of Mus musculus with 258 samples.

Results

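Ngn3-low cells of the mouse dorsal pancreas at E13.5 (embryonic day) were divided by their reads of Cpa1, the carboxypeptidase A1 gene that marks the tips of the branching pancreatic epithelium. Each cell's counts were expressed as CPM, its reads of a gene scaled to a fixed total of reads in all genes, and the 2 classes were chosen by that single value. A cell with Cpa1 at 10 CPM or more was tip-like and is called Cpa1-positive here, and a cell under 10 CPM was trunk-like and is called Cpa1-low. Of the 221 single cells of the series, 46 were Cpa1-positive Ngn3-low cells and 72 were Cpa1-low Ngn3-low cells. The Cpa1-positive class held 25 Jmjd3-deleted and 21 WT cells, and the Cpa1-low class held 44 deleted and 28 WT cells.

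The study profiled single pancreatic progenitors by Smart-seq2, which reads whole transcripts and gives them no molecular identifiers. ERCC RNA standards were put into each lysate. Jmjd3-deleted cells carry Pdx1-Cre, a recombinase driven by the promoter of the pancreatic factor gene Pdx1, and 2 floxed alleles of Jmjd3 (Jmjd3 fl/fl), the gene of the H3K27 demethylase that is listed as Kdm6b. WT cells are labelled WT with no Cre, so the Cre and the deletion cannot be told apart. All cells used here are labelled Ngn3-low, by the gene (Neurog3) of the factor that starts endocrine development, and no animal is named for any of them. Each genotype is therefore 1 sample, no test was possible, and all intervals below cover counting error only.

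In the embryonic pancreas, multipotent cells sit at the tips of the branching epithelium and express Ptf1a and Cpa1, and later form acinar cells. The trunk behind the tips expresses Sox9, Spp1, Hes1 and Nkx6-1 and gives rise to duct cells and, through a pulse of Neurog3, to endocrine cells. Tip and trunk factors repress each other, and Notch signals favour the trunk. PTF1, the complex that holds Ptf1a and an Rbpj protein, replaces Rbpj by Rbpjl as acinar cells differentiate and drives the digestive enzyme genes.

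The threshold fell in a sparse part of the distribution of Cpa1. The highest values just outside it were 4.28 and 7.22 CPM, and the lowest just inside were 14.3 and 29.9 CPM. Cpa1-low cells had no Cpa1 read in 53 cells and some reads in 19. Cpa1-positive cells reached a median of 861 CPM and a highest value of 19273 CPM, with 11 cells at 10 to 100 CPM and 21 cells over 1000 CPM. Cpa1-positive cells made up 36.2% of deleted cells (25 of 69, exact Clopper-Pearson 95% interval 24.99 to 48.7%) and 42.9% of WT cells (21 of 49, 28.8 to 57.8%), so the intervals of the 2 genotypes overlapped widely. The first number in a cell's title groups the cells further, into 3 sets of deleted and 5 sets of WT cells, and the labels do not say what it stands for. Every set held cells of both classes, with shares of 20 to 61.5% Cpa1-positive.

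**Figure D1:**
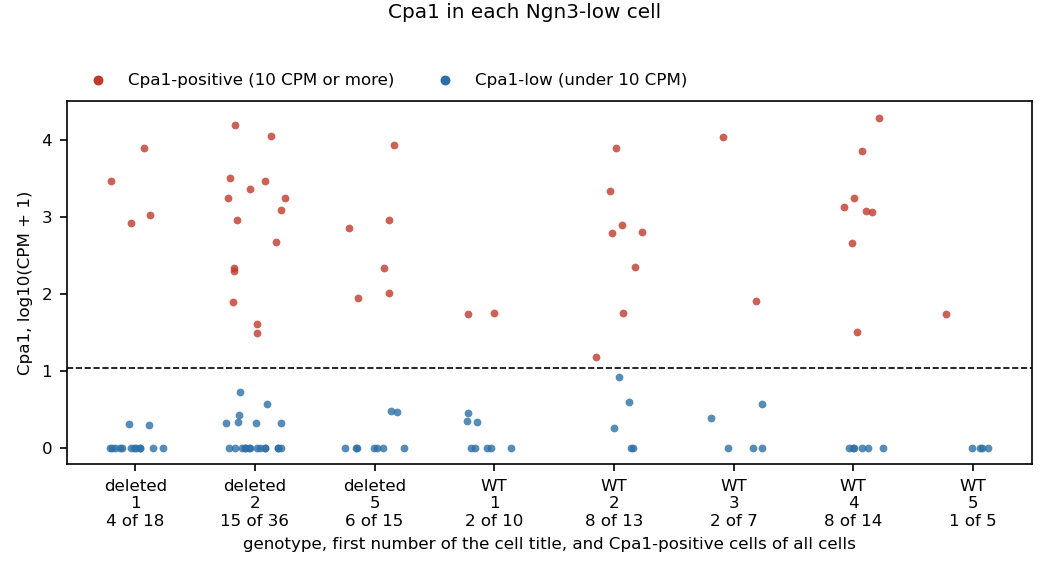
Cpa1 in each Ngn3-low cell, as log10(CPM + 1), by genotype and first number of the cell title; 1 point is 1 cell, the dashed line is 10 CPM, and the axis labels count Cpa1-positive cells of all cells. Few points lie near the line, and each of the 8 sets holds both classes, from 1 of 5 to 8 of 13 cells Cpa1-positive.

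The tip label held for Ptf1a, which the rule did not use. Ptf1a, the basic helix-loop-helix factor that specifies the pancreas and then acinar cells, was at 45.8 CPM in Cpa1-positive cells (exact Poisson 95% interval 43.5 to 48.2) and at 1.22 CPM in Cpa1-low cells (0.938 to 1.56). It reached 10 CPM in 28 of 46 Cpa1-positive cells, with a lowest, median and highest value of 0, 20.1 and 231 CPM, and in 1 of 72 Cpa1-low cells, whose values were 0, 0 and 142 CPM. Reads of Ptf1a were thus nearly confined to Cpa1-positive cells, but 18 of those 46 did not reach 10 CPM. In deleted cells 18 of 25 Cpa1-positive and 0 of 44 Cpa1-low cells reached it, and in WT cells 10 of 21 and 1 of 28. By title number, Ptf1a was higher in Cpa1-positive cells in 6 of the 8 sets. It had no read in either class in WT numbers 1 and 5.

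The trunk label was not borne out by Sox9. Sox9, the factor that keeps trunk and duct progenitors, was read at 10 CPM or more in all 46 Cpa1-positive and all 72 Cpa1-low cells, at 922 CPM (911 to 933) and 999 CPM (990.4 to 1008). Its lowest, median and highest values were 147, 866 and 2147 CPM in Cpa1-positive cells and 106, 834 and 2790 CPM in Cpa1-low cells, so that the classes covered the same range. Spp1, the osteopontin gene of the duct epithelium, was lower in Cpa1-positive cells, at 3092 CPM (3073 to 3111) against 6479 CPM (6457 to 6501) in Cpa1-low cells, yet 44 of 46 and 72 of 72 cells reached 10 CPM. Its log2 ratio of -1.07, from both levels with 1 CPM added, was -1.49 in deleted and -0.69 in WT cells. It was -0.95 with each cell weighted equally, -0.83 without the cells that carried markers of other cell types, and -0.90 to -1.30 when 1 set of cells with the same title number was left out, so that the 2-fold call was lost without deleted number 1 or 2 or WT number 3. The Cpa1-low class is therefore described by its rule and not as trunk cells.

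Across genes, the largest ratios were on the higher side, and more genes were on the lower side. Of 11268 genes at 5 CPM or more in either class, 330 (2.93%) were at least 2-fold higher and 499 (4.43%) at least 2-fold lower in Cpa1-positive cells. Within deleted cells the shares were 4.8% higher and 7.97% lower, and within WT cells 6.46% higher and 7.49% lower. A 2-fold difference in the same direction in both genotypes was met by 193 genes (1.71%) on the higher side and 221 (1.96%) on the lower side. Of 446 genes 2-fold higher in deleted cells and measured in both genotypes, 171 (38.3%) were also 2-fold higher in WT cells, which is 29.2% of the 586 higher in WT cells. Of the genes 2-fold lower, 193 were shared, 24.5% of those lower in deleted and 27.5% of those lower in WT cells. The median log2 ratio of all genes was -0.05. The genes named as the highest and lowest ratios below were 2-fold apart in both genotypes, at 20 CPM or more, and at 10 CPM or more in 25% of the cells of the higher class in each genotype. That rule was met by 83 genes on the higher and 97 on the lower side.

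**Figure D2:**
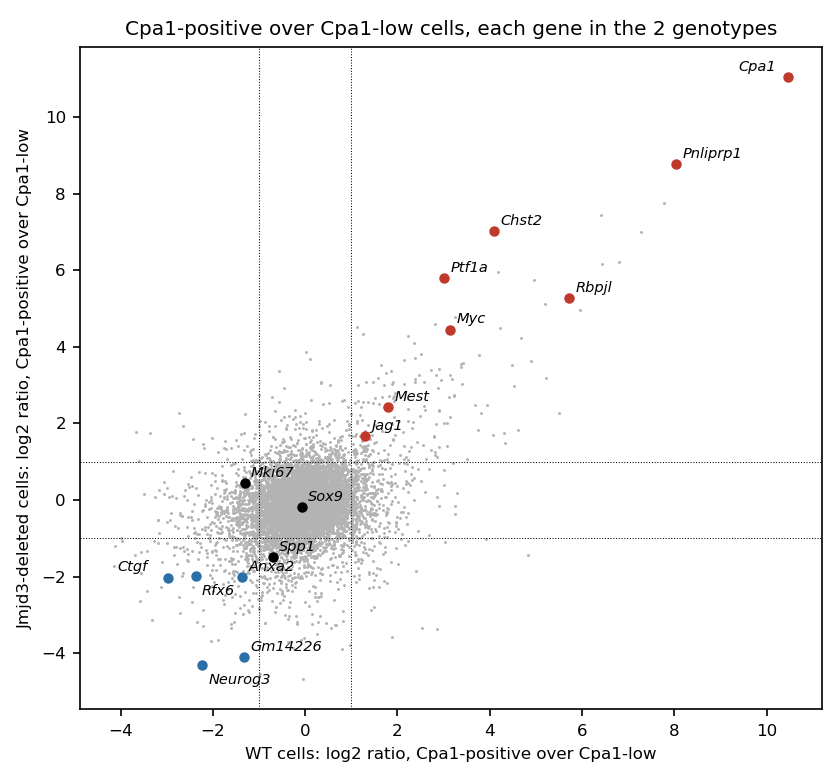
Log2 ratio of Cpa1-positive over Cpa1-low cells for each gene at 5 CPM or more (1 CPM added), in Jmjd3-deleted cells on the vertical and WT cells on the horizontal axis; dotted lines mark 2-fold, red genes are 2-fold higher and blue genes 2-fold lower in both genotypes, and black genes are neither. The labelled tip genes are higher in both genotypes, up to Pnliprp1 and Cpa1, but some differ in size. Ptf1a is at 5.79 in deleted and 3.01 in WT cells and Chst2 at 7.01 and 4.09, whereas Rbpjl is at 5.28 and 5.72. Sox9 sits near 0 in both genotypes.

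Many transcription factor genes of the tip were higher in Cpa1-positive cells. Of 16 tip and acinar factor genes, 15 reached 5 CPM in either class, 8 were at least 2-fold higher and none 2-fold lower, with a median log2 ratio of 1.07 against -0.05 for all genes; 6 of the 8 were higher in both genotypes. The median of this list was under 1 in 9 of the 24 alternatives tried, and 0.57 at the lowest. A gene read in 1 class alone passes such a minimum through that class, so these counts describe and do not test. Rbpjl, the acinar partner of Ptf1a in PTF1, was at 74.1 CPM in Cpa1-positive cells (71.1 to 77.1) and 0.818 CPM in Cpa1-low cells (0.592 to 1.10), and reached 10 CPM in 27 of 46 and 2 of 72 cells. Gata4, a zinc finger factor of the early pancreas that becomes restricted to tips, was at 76.4 CPM in Cpa1-positive and 13.8 CPM in Cpa1-low cells (34 and 17 cells at 10 CPM or more). Myc, a regulator of proliferation and biosynthesis, was at 149 CPM in Cpa1-positive and 8.89 CPM in Cpa1-low cells (26 and 10 cells at 10 CPM or more), with log2 ratios of 4.45 in deleted and 3.14 in WT cells. Smaller differences were seen for Bhlha15, the secretory maturation factor also called Mist1, at 12.1 CPM in Cpa1-positive and 2.49 CPM in Cpa1-low cells, and for Xbp1, a driver of the secretory pathway, at 274 CPM in Cpa1-positive and 130.2 CPM in Cpa1-low cells. The FGF-responsive factor genes Etv4 and Etv5 were higher as well, with log2 ratios of 2.32 and 1.47, but were read in few cells. Etv4 reached 10 CPM in 7 Cpa1-positive and 3 Cpa1-low cells, and Etv5 in 9 of each class. In deleted cells alone the log2 ratio of Etv5 was 0.99. Bhlha15 reached 10 CPM in 6 Cpa1-positive and 5 Cpa1-low cells. Nr5a2, a nuclear receptor of acinar cells, was at 59.4 CPM in Cpa1-positive and 43.8 CPM in Cpa1-low cells, under 2-fold apart.

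Digestive enzyme genes gave the largest ratios. Of 36 listed enzyme and secretory genes, 12 reached 5 CPM in either class, 10 of these were 2-fold higher and 1 was 2-fold lower, each in both genotypes, and the median log2 ratio was 5.10 over the 11 genes other than Cpa1. With no minimum the median of the whole list was 0.30, against 5.21 with it, since most listed genes were read little in either class. Pnliprp1, a lipase-related protein of acinar cells, was at 416 CPM in Cpa1-positive and 0.171 CPM in Cpa1-low cells (31 and 0 cells at 10 CPM or more). Ctrb1, a chymotrypsinogen gene, was at 276 CPM in Cpa1-positive and 1.08 CPM in Cpa1-low cells (26 and 3 cells at 10 CPM or more), and Cela1, an elastase gene, at 252 CPM in Cpa1-positive and 6.38 CPM in Cpa1-low cells (38 and 11 cells at 10 CPM or more). Reg1, a secreted acinar protein, was at 47.5 CPM in Cpa1-positive and 0.209 CPM in Cpa1-low cells (26 and 1 cells at 10 CPM or more). Cel, the bile salt-dependent lipase gene, was at 80.7 CPM, in 20 of 46 Cpa1-positive cells, against 2 reads in all Cpa1-low cells, a ratio of 2121 with a counting interval of 587 to 17524. Clps, the colipase gene, was read in both classes, at 1229 CPM in Cpa1-positive and 125 CPM in Cpa1-low cells. The gene that was lower was Dpp4, a surface peptidase, at 27.2 CPM in Cpa1-positive and 73.5 CPM in Cpa1-low cells.

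The 250 bases before the start of Cpa1 and Cel are shown because PTF1 is known to bind an E-box beside a TC-box in acinar gene promoters. Cpa1 was taken as the gene that set the classes, and Cel, after the search, as the one of the 10 highest ratios with both motifs close together. They come from RefSeq (GRCm38.p6), 5′ to 3′ on the strand of the gene, Cpa1 from chr6:30638968-30639217 (plus strand) and Cel from chr2:28563404-28563653 (minus strand). Capitals mark CACCTG (an E-box) and TTTCCC (a TC-box), each on either strand.
Cpa1: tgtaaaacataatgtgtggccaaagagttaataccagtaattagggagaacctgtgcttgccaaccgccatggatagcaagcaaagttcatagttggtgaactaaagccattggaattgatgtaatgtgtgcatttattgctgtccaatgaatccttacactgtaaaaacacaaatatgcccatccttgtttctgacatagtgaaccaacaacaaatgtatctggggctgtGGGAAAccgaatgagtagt
Cel: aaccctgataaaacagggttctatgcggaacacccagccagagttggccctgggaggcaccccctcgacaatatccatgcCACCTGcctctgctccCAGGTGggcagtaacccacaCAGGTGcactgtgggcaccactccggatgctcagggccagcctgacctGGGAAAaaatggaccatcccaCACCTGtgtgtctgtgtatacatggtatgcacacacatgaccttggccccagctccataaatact
Cel held 4 E-boxes and 1 TC-box, the TC-box at bases 86 to 81 and the nearest E-box at bases 65 to 60 before the start. Cpa1 held 1 TC-box, at bases 19 to 14 before the start, and no CACCTG. Among 32851 RefSeq promoters the E-box was found in 17.2%, the TC-box in 21.9%, and both with starts within 32 bases in 0.919%. Of the 10 genes with the highest ratios, 9 had a promoter entry, and 3 of these held the E-box, 5 the TC-box and 1, Cel, the pair. Of the 10 with the lowest ratios, 8 had an entry, with 2, 1 and 0. A match is a run of letters and not a measured binding site.

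The 10 highest ratios also included genes outside the digestive enzyme and tip factor lists. Vtn, the gene of the adhesive plasma protein vitronectin, was at 320 CPM in Cpa1-positive cells (314 to 326) and 0.438 CPM in Cpa1-low cells (0.278 to 0.657), in 31 of 46 and 1 of 72 cells. P2rx1, an ATP-gated ion channel gene, was at 208 CPM in Cpa1-positive and 0.590 CPM in Cpa1-low cells (30 and 2 cells at 10 CPM or more). Chst2, a carbohydrate sulfotransferase gene, was at 221 CPM in Cpa1-positive and 3.24 CPM in Cpa1-low cells (30 and 5 cells at 10 CPM or more), with log2 ratios of 7.01 in deleted and 4.09 in WT cells. Cpa1, Pnliprp1, Ctrb1, Cel, Rbpjl and Reg1 were also among the 10. Pnliprp1, P2rx1, Vtn and Cela1 were among the 5 genes whose CPM followed Cpa1 most closely across all Ngn3-low cells of both genotypes (Spearman rho 0.79, 0.73, 0.72 and 0.68 of 9451 genes at 10 CPM or more in at least 25% of cells). These correlations include the split that the rule made and share each cell's library.

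Other genes were higher in Cpa1-positive cells, and of these Mest, Dlk1, Jag1 and Rbp4 were read in many cells of both classes. Mest, an imprinted growth gene, was at 1071 CPM in Cpa1-positive and 232 CPM in Cpa1-low cells, with a median over cells of 712 CPM in Cpa1-positive and 115 CPM in Cpa1-low cells, and was higher in each of the 8 sets. Not all genes were so even, since Jag1, Cela1 and Chst2 were higher in 6 and lower in 2 of the 8 sets. Rbpjl was higher in 6 and lower in 1. Dlk1, an imprinted transmembrane protein gene related to the Notch ligands, was at 533 CPM in Cpa1-positive and 189 CPM in Cpa1-low cells, in all 46 and in 71 of 72 cells. Jag1, a Notch ligand gene, was at 92.2 CPM in Cpa1-positive and 31.3 CPM in Cpa1-low cells (37 and 35 cells at 10 CPM or more); without cells that carried markers of other cell types its log2 ratio was 0.72, under 2-fold. Rbp4, the plasma retinol carrier gene, was at 141 CPM in Cpa1-positive and 27.4 CPM in Cpa1-low cells. Nkx6-2, a homeobox factor gene and the single member of the trunk and duct factor list that was 2-fold higher, was at 23.1 CPM in Cpa1-positive and 1.123 CPM in Cpa1-low cells (18 and 3 cells at 10 CPM or more). Mnx1, a homeobox factor of the early pancreas and of beta cells, was at 8.11 CPM in Cpa1-positive and 0.190 CPM in Cpa1-low cells (12 and 1 cells at 10 CPM or more).

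**Figure D3:**
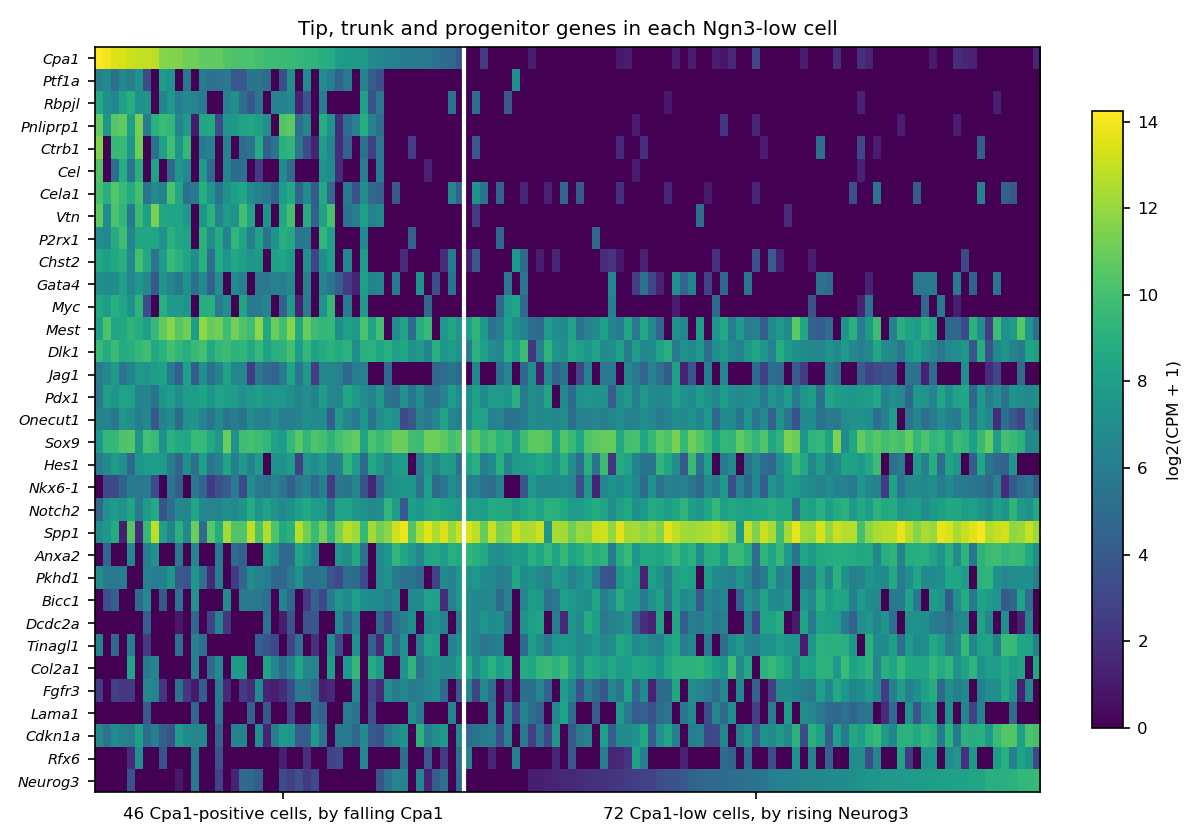
Log2(CPM + 1) of tip, trunk and progenitor genes in each Ngn3-low cell; 1 column is 1 cell, with the 46 Cpa1-positive cells on the left in order of falling Cpa1 and the 72 Cpa1-low cells on the right in order of rising Neurog3. Enzyme and PTF1 genes become sparse before the white line, in the Cpa1-positive cells with the least Cpa1, while Sox9 runs across both classes. Some Cpa1-low cells still read them, with Cela1 at 10 CPM or more in 11 of 72.

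Trunk and duct factors were mostly shared, and duct surface genes were partly lower in Cpa1-positive cells. Of 20 trunk and duct factor genes, 18 reached 5 CPM, 1 was 2-fold higher, none was 2-fold lower and the median log2 ratio was -0.09. Hes1, the repressor induced by Notch, was at 152 CPM in Cpa1-positive and 224 CPM in Cpa1-low cells, and Nkx6-1, the homeobox factor of trunk and beta cells, at 53.4 CPM in Cpa1-positive and 89.4 CPM in Cpa1-low cells. Onecut1 was at 93.5 CPM in Cpa1-positive and 95.6 CPM in Cpa1-low cells and Pdx1, the factor of all pancreatic progenitors, at 166 CPM in Cpa1-positive and 161 CPM in Cpa1-low cells. The epithelial cadherin gene Cdh1 was at 564 CPM in Cpa1-positive and 598 CPM in Cpa1-low cells and was read in all cells. Of 31 duct surface and function genes, 24 reached 5 CPM, 7 were 2-fold lower and none higher, beside 4.43% lower and 2.93% higher among all genes. Of the 7, 5 were 2-fold lower in both genotypes. The median log2 ratio of the list was -0.39, with -0.55 in deleted and -0.13 in WT cells. Anxa2, a membrane-binding annexin gene, was at 125 CPM (122 to 129) in Cpa1-positive and 431 CPM (425 to 437) in Cpa1-low cells; its lowest, median and highest values were 0, 64.4 and 678 CPM and 34.3, 446 and 917 CPM, and it was lower in each of the 8 sets. Pkhd1, the fibrocystin gene of primary cilia in ducts, was at 56.6 CPM in Cpa1-positive and 165 CPM in Cpa1-low cells, Bicc1, an RNA-binding protein gene whose loss causes cystic kidneys in mice, at 65.8 CPM in Cpa1-positive and 151 CPM in Cpa1-low cells, and Krt7, a duct keratin, at 124 CPM in Cpa1-positive and 268 CPM in Cpa1-low cells. In WT cells alone Krt7 was under 2-fold apart, with a log2 ratio of -0.89. Dcdc2a, a doublecortin-domain gene, was at 23.6 CPM in Cpa1-positive and 119 CPM in Cpa1-low cells (18 and 55 cells at 10 CPM or more).

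Neurog3 had the lowest ratio of all genes that met the naming rule. Neurog3 was at 12.3 CPM (11.1 to 13.6) in Cpa1-positive cells and at 126 CPM (123 to 129) in Cpa1-low cells, and reached 10 CPM in 14 of 46 and 47 of 72 cells. Its lowest, median and highest values were 0, 0 and 92.8 CPM in Cpa1-positive cells and 0, 41.8 and 807 CPM in Cpa1-low cells, so the classes overlapped up to 92.8 CPM. It was lower in Cpa1-positive cells in each of the 8 sets, with log2 ratios of -4.31 in deleted and -2.23 in WT cells. In deleted cells it was at 6.04 CPM in Cpa1-positive and 139 CPM in Cpa1-low cells, and in WT cells at 21.3 CPM in Cpa1-positive and 103 CPM in Cpa1-low cells. Rfx6, a factor that acts with and after Neurog3 in endocrine development, was at 11.3 CPM in Cpa1-positive and 53.2 CPM in Cpa1-low cells (8 and 26 cells at 10 CPM or more). Of 25 endocrine factor genes, 10 reached 5 CPM, with 2 higher (Mnx1 and Runx1t1), 2 lower (Neurog3 and Rfx6) and a median log2 ratio of -0.46. Among all genes 2.93% were higher and 4.43% lower. Runx1t1 was under 2-fold apart in WT cells, with log2 ratios of 1.98 in deleted and 0.53 in WT cells. Neurod1, the direct target of Neurog3 that opens endocrine differentiation, was at 0.282 CPM (0.129 to 0.535) and 0.266 CPM (0.146 to 0.447), and no cell of either class reached 10 CPM.

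The other genes among the 10 lowest ratios were of mixed kinds. Il1rap, the accessory chain of the interleukin 1 receptor, was at 3.23 CPM (2.63 to 3.91) and 30.2 CPM (28.7 to 31.7), in 3 of 46 and 20 of 72 cells. Tinagl1, a secreted matrix protein gene, was at 42.1 CPM in Cpa1-positive and 196 CPM in Cpa1-low cells (20 and 66 cells at 10 CPM or more), and was lower in each of the 8 sets. Anxa9, an annexin gene, was at 5.26 CPM in Cpa1-positive and 42.02 CPM in Cpa1-low cells (6 and 37 cells at 10 CPM or more). Ctgf, a matricellular protein gene that responds to the Hippo effector YAP, was at 4.10 CPM in Cpa1-positive and 23.5 CPM in Cpa1-low cells (1 and 26 cells at 10 CPM or more). Zfp709, Gm14226 and Klhdc7a had log2 ratios of -2.79, -2.51 and -2.31, and Gm14226 differed between the genotypes in size, at -4.10 in deleted and -1.32 in WT cells, a difference that was not tested. The lowest correlations with Cpa1 across cells were those of Anxa2, Col2a1, Tinagl1, Krt18 and Sparc (Spearman rho -0.65, -0.61, -0.58, -0.57 and -0.57). Col2a1, a fibrillar collagen gene that Sox9 activates in cartilage, was at 112 CPM in Cpa1-positive and 393 CPM in Cpa1-low cells (28 and 69 cells at 10 CPM or more).

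Pathway lists are given by their members 2-fold apart, beside 2.93% higher and 4.43% lower among all genes. In the Notch list, 24 of 30 genes reached 5 CPM, with 3 higher (Jag1, Heyl and Dlk1), 3 lower (Dll4, Maml2 and Numbl) and a median log2 ratio of -0.12. Jag1 and Dlk1 were 2-fold higher in both genotypes, and none of the 3 lower genes was 2-fold lower in both. Heyl had log2 ratios of 2.18 in deleted and -0.21 in WT cells, and Numbl of -2.61 in deleted and 0.63 in WT cells. The receptor gene Notch2 was at 191 CPM in Cpa1-positive and 320 CPM in Cpa1-low cells, under 2-fold apart, and lower in each of the 8 sets. In the FGF and EGF list, 20 of 26 reached 5 CPM, with 5 higher and 1 lower. The higher ones were the ligand gene Fgf9, the feedback genes Spry1 and Spred1, and Etv4 and Etv5. Of these only Spry1 and Etv4 were 2-fold higher in both genotypes. The log2 ratio of Fgf9 was 0.37 in WT cells, and those of Spred1 and Etv5 were 0.40 and 0.99 in deleted cells. Fgf9 reached 10 CPM in 5 Cpa1-positive and 4 Cpa1-low cells. The lower one was the receptor gene Fgfr3, at 30.1 CPM in Cpa1-positive and 99.1 CPM in Cpa1-low cells. In the Wnt list 1 of 22 was higher, Lgr5, a receptor gene of stem cells in other epithelia, at 10.96 CPM in Cpa1-positive and 0.114 CPM in Cpa1-low cells (6 and 0 cells at 10 CPM or more), and the median was 0.08. In the polarity, cilia and Hippo list 3 of 23 were lower and none higher, and all 3 were genes known to respond to YAP. These were Ctgf, Cyr61 at 80.9 CPM in Cpa1-positive and 218 CPM in Cpa1-low cells, and Amotl2 at 71.6 CPM in Cpa1-positive and 204 CPM in Cpa1-low cells, but in WT cells alone Cyr61 and Amotl2 were under 2-fold apart, with log2 ratios of -0.41 and -0.84. In the adhesion and matrix receptor list, 1 of 27 was higher, the neural cadherin gene Cdh2, at 34.7 CPM in Cpa1-positive and 15.3 CPM in Cpa1-low cells and under 2-fold in 7 of the 24 alternatives tried, and 1 lower, the laminin gene Lama1, at 11.4 CPM in Cpa1-positive and 44.5 CPM in Cpa1-low cells. In the TGF-beta, activin and BMP list, 22 reached 5 CPM and 1, Tgfb3, was lower, at 1.79 CPM in Cpa1-positive and 6.85 CPM in Cpa1-low cells, all but 1 of its reads from deleted cells. Of 13 H3K27 methylation genes at 5 CPM, the Polycomb-associated Phf1 was lower, at 0.501 CPM in Cpa1-positive and 7.84 CPM in Cpa1-low cells, and none was higher. Of 17 imprinted growth genes 2 were higher, Mest and Dlk1, of 9 liver-type plasma protein genes 1, Rbp4, and of 13 immediate early genes 1, Myc. Of 22 hormone and granule protein genes 4 reached 5 CPM and 1 was higher, the prohormone-processing gene Cpe, at 32.6 CPM in Cpa1-positive and 3.05 CPM in Cpa1-low cells (10 and 4 cells at 10 CPM or more).

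Most genes of ribosomes and their assembly were higher in Cpa1-positive cells, nearly all of them by under 2-fold. Over all genes, 44.2% had a log2 ratio above 0 in deleted and 47.5% in WT cells. Of 30 ribosome biogenesis and Myc target genes, 29 had a log2 ratio above 0, 5 were 2-fold higher and the median was 0.54, with 0.63 in deleted and 0.44 in WT cells. Polr1b, a subunit of RNA polymerase I, was at 65.4 CPM in Cpa1-positive and 25.96 CPM in Cpa1-low cells, and Srm, spermidine synthase, at 136 CPM in Cpa1-positive and 53.6 CPM in Cpa1-low cells. All 42 cytosolic ribosomal protein genes were above 0, with a median of 0.29 and none 2-fold apart. DNA replication genes had a pooled median of 0.39, with 0.63 in deleted but -0.07 in WT cells, a difference that was not tested. Among cells under 10 CPM of Neurog3 the pooled median was 0.05. Pooled over the genotypes, 27 of 29 were above 0 and 1 of them, Rrm1, was 2-fold higher at a log2 ratio of 1.00 that was under 2-fold in 13 of the 24 alternatives tried. Protein folding and secretion genes had a median of 0.10, and only Xbp1 of 34 was 2-fold higher; Hspa5, the main chaperone of the endoplasmic reticulum, was at 797 CPM in Cpa1-positive and 754 CPM in Cpa1-low cells. Changing the scaling factor moved the median of all genes from -0.05 to 0.00 or 0.01.

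**Figure D4:**
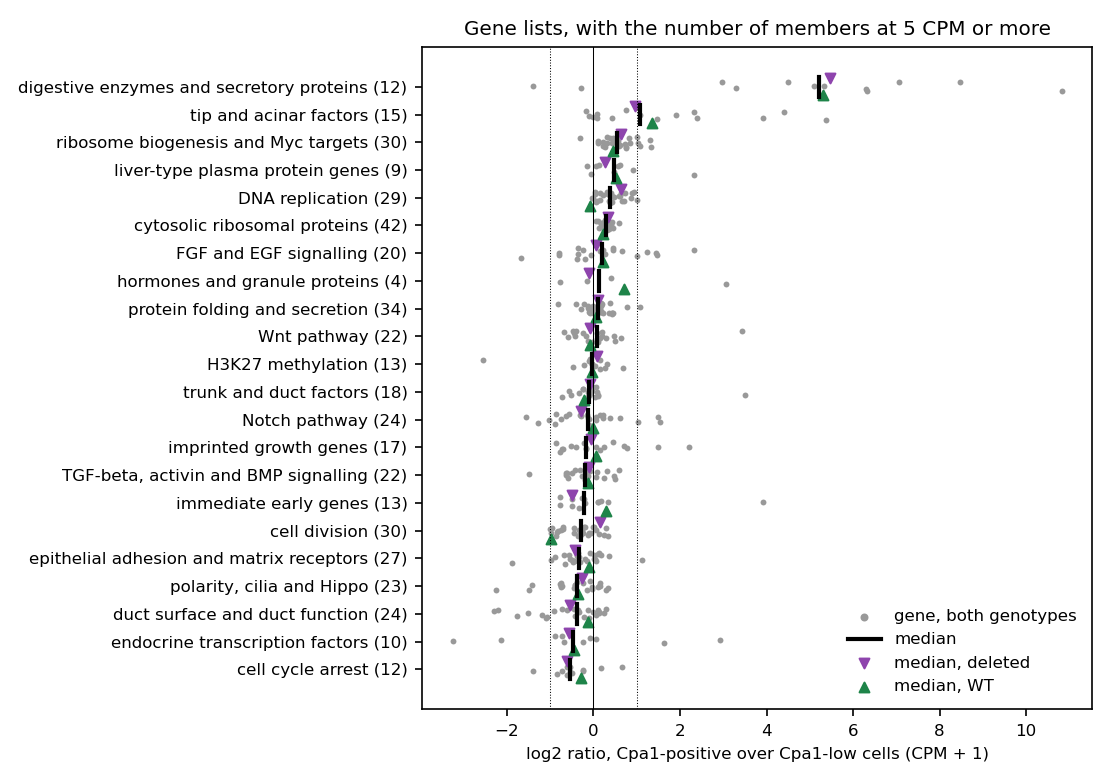
Log2 ratio of Cpa1-positive over Cpa1-low cells (1 CPM added) for the members of 22 gene lists at 5 CPM or more; grey points are genes with both genotypes together, black bars their median, purple triangles the median in Jmjd3-deleted and green triangles that in WT cells, and dotted lines mark 2-fold. Enzymes and tip factors lie to the right, and duct surface genes have a lower tail. The cell division medians of the genotypes lie on opposite sides of 0, but sets of cells within each genotype also went opposite ways.

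Cell division genes did not follow the classes in the same way in the genotypes. Mki67, a marker of cycling cells, reached 10 CPM in 22 of 46 Cpa1-positive and 35 of 72 Cpa1-low cells, at 119 CPM in Cpa1-positive and 145 CPM in Cpa1-low cells. In deleted cells it was at 142 CPM in Cpa1-positive and 105 CPM in Cpa1-low cells, and 19 of the 30 cell division genes were above 0, with a median of 0.14 and none 2-fold apart. In WT cells Mki67 was at 86.2 CPM in Cpa1-positive and 215 CPM in Cpa1-low cells, none of the 30 genes was above 0, 13 were 2-fold lower and the median was -0.99. The values of both genotypes joined sets of cells that went opposite ways. In deleted cells the log2 ratios of the list's summed CPM were 1.21, -0.24 and 0.12 in title numbers 1, 2 and 5. In WT cells the summed CPM was 5104 in the 8 Cpa1-positive and 196 in the 6 Cpa1-low cells with title number 4, whereas in the other 4 WT sets the Cpa1-positive cells, between 1 and 8 of them, were lower, with log2 ratios of the sums from -6.71 to -1.96. The difference between the genotypes was not tested. Cdkn1a, the cell cycle inhibitor p21, was at 96.3 CPM (92.9 to 99.8) in Cpa1-positive and 255 CPM (251 to 260) in Cpa1-low cells, the one gene 2-fold apart of 12 cell cycle arrest genes, whose median was -0.55.

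The Cpa1-positive class was graded, and its cells with the least Cpa1 had little of the rest of the tip programme. In the 11 cells at 10 to 100 CPM of Cpa1, Ptf1a was at 0.692 CPM (0.225 to 1.61) and reached 10 CPM in 1 cell, in the 14 cells at 100 to 1000 CPM it was at 49.5 CPM (45.1 to 54.1) and reached 10 CPM in 10 cells, and in the 21 cells over 1000 CPM it was at 65.1 CPM (61.1 to 69.3) and did so in 17 cells. Pnliprp1 was at 2.21, 389 and 630 CPM in the same order, against 0.171 CPM in Cpa1-low cells. Myc was at 2.49, 104 and 247 CPM, against 8.89 CPM in Cpa1-low cells, and so was not higher in the lowest band. Duct genes ran the other way. Spp1 was at 7618, 2737 and 1154 CPM, against 6479 CPM in Cpa1-low cells, Anxa2 at 337, 122 and 27.2 CPM, against 431 CPM, and Sox9 at 1546, 869 and 657 CPM, against 999 CPM. Neurog3 reached 10 CPM in 8 of 11, 1 of 14 and 5 of 21 cells, against 47 of 72 Cpa1-low cells. Within the 46 cells, Cpa1 had a Spearman rho of 0.70 with the mean log2(CPM + 1) of the other tip factor and enzyme genes, and of -0.57 with that of the trunk and duct genes; within deleted cells (n = 25) these were 0.66 and -0.62, and within WT cells (n = 21) 0.71 and -0.51. The rho of Cpa1 with a cell's reads in genes was 0.19 in the 46 cells, 0.495 within deleted and -0.10 within WT cells. The part of depth in these correlations was not tested. Across the 72 Cpa1-low cells the tip and trunk means had a rho of 0.29. The cells share their libraries' composition, and these values describe the cells and carry no test.

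**Figure D5:**
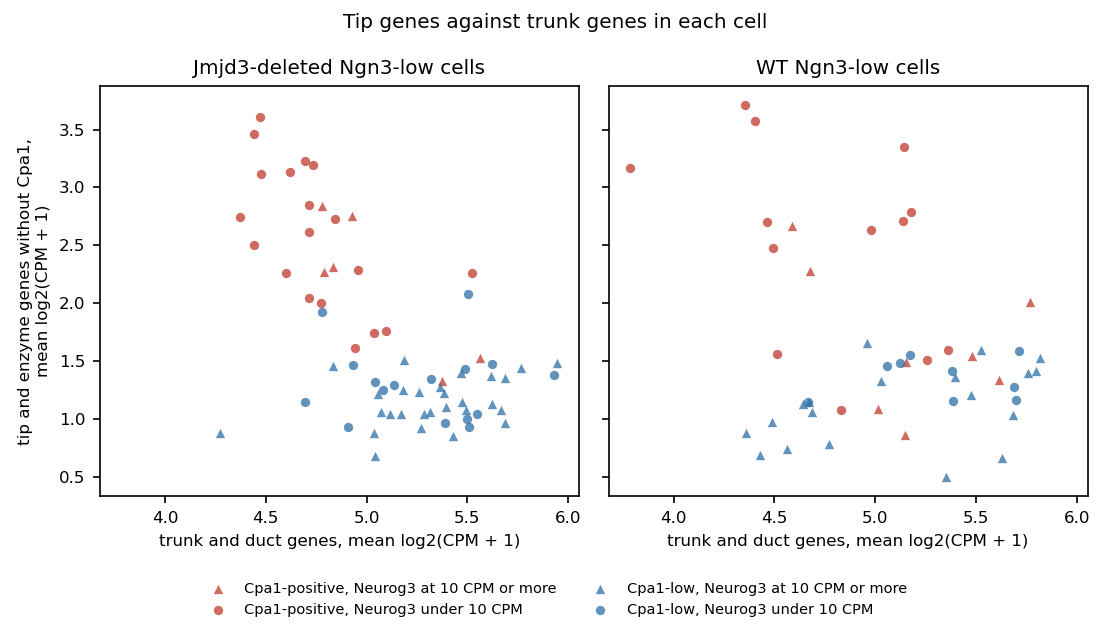
Mean log2(CPM + 1) of the tip factor and enzyme genes without Cpa1, against that of the trunk and duct genes, in each Jmjd3-deleted (left) and WT (right) Ngn3-low cell; red is Cpa1-positive, blue Cpa1-low, and triangles have Neurog3 at 10 CPM or more. Cpa1-low cells stay at the bottom, up to 2.08, and Cpa1-positive cells spread from there to 3.72, with more trunk gene expression in the cells near the bottom.

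Reading Cpa1 and Neurog3 together, a split chosen after these values were seen, gave 14 cells with both at 10 CPM or more, 32 with Cpa1 alone, 47 with Neurog3 alone and 25 with neither. The 14 cells with both were 6 deleted and 8 WT cells, and their median Cpa1 was 83.5 CPM, against 1077 CPM in cells with Cpa1 alone. Spp1 was at 6101 CPM in cells with both, 1886 CPM with Cpa1 alone, 6795 CPM with Neurog3 alone and 5841 CPM with neither. Anxa2 was at 235 CPM in cells with both, 81.5 CPM with Cpa1 alone, 433 CPM with Neurog3 alone and 426 CPM with neither. Both genes were thus lowest in cells with Cpa1 alone and highest in cells with Neurog3 alone. Ptf1a reached 10 CPM in 5 of 14, 23 of 32, 0 of 47 and 1 of 25 cells. Cdkn1a was at 126, 84.2, 341 and 81.5 CPM, so that among cells under 10 CPM of Neurog3 Cpa1-positive cells had 84.2 CPM and Cpa1-low cells 81.5 CPM, with a log2 ratio of 0.05 in place of -1.40. In the same cells Anxa2 kept a log2 ratio of -2.37, Spp1 -1.63, Jag1 1.43 and Myc 3.17. Hes1 was at 121 CPM in cells with both, 164 CPM with Cpa1 alone, 192 CPM with Neurog3 alone and 288 CPM with neither.

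Read depth was close in the classes, and the spike-in share was lower in Cpa1-positive cells. Reads in genes ran from 380478 to 1250805 per cell, with medians of 664538 in Cpa1-positive and 724652 in Cpa1-low cells, and after thinning every cell to 380478 reads the median number of genes detected was 8234 and 8274 (unthinned, 8659 and 8835). ERCC reads made up a median of 2.86% in Cpa1-positive and 3.87% in Cpa1-low cells, or 33.96 and 24.8 gene reads per ERCC read; CPM does not carry the amount of RNA per cell, and the part of this difference in the results was not tested. The epithelial gene Epcam was at 1087 CPM in Cpa1-positive and 1044 CPM in Cpa1-low cells and was read in all cells. Of the markers of white blood cells 1 of 12 reached 5 CPM (C1qa, in 10 of 46 and 3 of 72 cells), of endothelium 0 of 11, of mesenchyme 2 of 13 and of neural crest and glia 3 of 11. The endothelial gene Cdh5 and the neural crest gene Foxd3 had no read, but other members of both lists were read. Endothelial Esam was at 4.51 CPM in Cpa1-positive and 1.37 CPM in Cpa1-low cells (6 and 2 cells at 10 CPM or more). Pecam1, also endothelial, was at 1.60 CPM in each class. Summed over a list and a class, white blood cell markers were at 12.3 CPM in Cpa1-positive and 5.1 CPM in Cpa1-low cells and endothelial markers at 7.5 CPM in Cpa1-positive and 4.1 CPM in Cpa1-low cells. Mesenchymal markers were at 263 CPM in Cpa1-positive and 389 CPM in Cpa1-low cells, mostly Vim at 246 CPM in Cpa1-positive and 382 CPM in Cpa1-low cells. Pdgfrb, the other mesenchymal marker over 5 CPM, went the other way, at 8.02 CPM in Cpa1-positive and 0.190 CPM in Cpa1-low cells (6 and 1 cells at 10 CPM or more). Summed in the same way, neural crest and glia markers were at 112 CPM in Cpa1-positive and 156 CPM in Cpa1-low cells, mostly Erbb3, with Sox10 lower at 2.54 CPM in Cpa1-positive and 10.9 CPM in Cpa1-low cells. Mesothelial markers were at 141 CPM in Cpa1-positive and 83.7 CPM in Cpa1-low cells, with 2 of 8 at 5 CPM, of which Gata4 is also a tip gene. Intestinal markers were at 30.2 CPM in Cpa1-positive and 21.3 CPM in Cpa1-low cells, with 3 of 8 at 5 CPM, Lgr5 higher and Cdh17 lower. Red blood cell markers were at 136 CPM in Cpa1-positive and 62.98 CPM in Cpa1-low cells, with 1 Cpa1-positive cell at 3053 CPM, and 4 of the 5 at 5 CPM were 2-fold higher. The part of these reads in the results was not tested. At 10 CPM or more, 13 of 46 Cpa1-positive and 17 of 72 Cpa1-low cells had 2 or more of 45 markers of other cell types.

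Kdm6b, the deleted gene, was at 55.5 CPM in deleted cells (53.5 to 57.6) and at 131 CPM in WT cells (128 to 135), and reached 10 CPM in 64 of 69 and 49 of 49 cells. Reads were counted over the whole gene, so reads outside its floxed part and reads of an undeleted gene cannot be told apart. How far the gene was deleted in these cells was not tested. By class it was at 46.2 CPM in Cpa1-positive and 60.8 CPM in Cpa1-low deleted cells, and at 133 CPM in Cpa1-positive and 131 CPM in Cpa1-low WT cells.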

How the data were processed

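Single-cell cDNA was made by Smart-seq2 with ERCC spike-ins, per the labels' protocols. The authors deposited a table of raw read counts per gene and cell, and TopHat2 2.1.0, Bowtie2, HTSeq 0.6.0 and the build mm10 are named in the submitters' processing notes; the annotation is not given in the sources used here. The deposited count table held 40824 genes and 92 ERCC entries, which were set apart, and a deposited gene length. The 2 classes, the comparisons and the 29 gene lists were chosen with earlier results of these data known. Cells were not treated as replicates and no animal is named, so no test was run. The authors' counts were summed over the cells of a class and scaled to CPM, with exact Poisson 95% intervals, and shares of cells at 10 CPM or more were given exact Clopper-Pearson 95% intervals; reads carry no molecular identifiers, so both cover counting error only. Log2 ratios used CPM + 1, which understates the change of low genes, and a gene was counted at 2-fold or more with at least 5 CPM in the higher class. Named genes were a fixed set of markers, the 10 highest and 10 lowest ratios that met the rule given above, up to 4 members of each list, and the 5 highest and lowest correlations with Cpa1; some further list members that were 2-fold apart were named after their values were seen. Of the gene identifiers, 39864 were also in the table of gene names. Alternatives changed the Cpa1 threshold, the marker, the weighting, the scaling (edgeR 4.0.16 TMM factors, and a median of ratios), the added CPM, the minimum, the depth and the cells kept. Python 3.11.15 with scipy 1.17.1 was used, and the class comparison was tested on simulated data. Bulk RNA, ChIP and RPKM tables were not used here, and results on some list members are not reported here.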

Additional observations from a re-analysis of the deposited data

Results flagged for a closer look

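Several values differed in sign between the genotypes, and the difference between deleted and WT cells was not tested for any of them. The log2 ratio of Cpa1-positive over Cpa1-low cells for Mki67 was 0.44 in deleted and -1.31 in WT cells. For Top2a, the topoisomerase of dividing cells, it was 1.00 in deleted and -0.87 in WT cells, and the median of the cell division list was 0.14 and -0.99. Sets of cells went opposite ways within both genotypes, as given above. The median of the DNA replication list was 0.63 in deleted and -0.07 in WT cells. Red blood cell markers had a median of -0.21 in deleted and 2.01 in WT cells. For the embryonic globin gene Hbb-y the log2 ratio was -1.43 in deleted and 4.84 in WT cells, with 74.5% of its reads in Cpa1-positive cells from 1 cell; the part of that cell in the difference was not tested. For the islet peptide gene Iapp it was -1.74 in deleted and 0.12 in WT cells, from 2 of 46 Cpa1-positive and 9 of 72 Cpa1-low cells at 10 CPM or more.

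Cpa1 was also read outside the Ngn3-low cells. Of 103 Ngn3-high cells, 8 had Cpa1 at 10 CPM or more (7.77%, exact Clopper-Pearson 95% interval 3.41 to 14.7%, counting error only). These were 3 of 44 deleted and 5 of 59 WT cells, with values up to 1014 CPM. In the 8 cells Sox9 was at 353 CPM, against 79.5 CPM in the other 95. Ctrb1 was at 25.4 CPM, against 0.833 CPM in the other 95, Vtn at 17.4 CPM, against 0.212 CPM, and Pnliprp1 at 20.5 CPM, against 4.76 CPM. In this order they reached 10 CPM in 3, 2 and 4 of the 8 cells and in 2, 1 and 3 of the other 95. P2rx1, Cel and Reg1 had no read in the 8 cells, with P2rx1 at 0.818 CPM in the other 95. Chst2 was at 0.406 CPM in the 8 cells, against 1.00 CPM. Ptf1a and Rbpjl had no read in the 8 cells and were at 0.226 and 0.0141 CPM in the other 95, and Neurog3 was at 1806 CPM, against 1436 CPM in the other 95.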

How the results depend on the processing

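No paired analysis was possible because the results come from no test and each genotype is 1 sample. The share of Cpa1-positive cells was 29.7% with Cpa1 at 100 CPM or more and 24.6% with Ptf1a at 10 CPM or more as the marker, and 36.19 to 42% when 1 set of cells was left out. The 330 genes higher and 499 lower became 182 and 218 with 5 CPM added, 623 and 968 with no filter on low values, and 146 and 206 at 20 CPM or more. With Cpa1 at 100 CPM or more 750 genes were lower, with Ptf1a as the marker 858, and without cells at 1 to 100 CPM of Cpa1 816, while the higher counts stayed within 1.5 times. Chosen after seeing the data, cells under 10 CPM of Neurog3 gave 569 higher and 999 lower, and cells under 10 CPM of Mki67 gave 708 and 927, each from fewer cells. Leaving out 1 set gave 337 to 442 higher and 501 to 666 lower. TMM and median of ratios gave 364 and 367 higher, and 452 and 445 lower. Of 51 named genes 2-fold apart by ratio alone, with no minimum CPM, 38 stayed so under all 24 alternatives. Cpa1, whose ratio the rule itself set, was among the 38, and Cd68 and Esam, under 5 CPM in both classes, were among the 51. A change of sign was seen for Cdkn1a (0.046) and Cd68 (0.22) in cells under 10 CPM of Neurog3, for Cd68 (0.31) in cells under 10 CPM of Mki67, and for Hbb-y, which ran from -0.77 without WT title number 4 to 3.13 without deleted title number 2. The median of the digestive enzyme list was 0.30 with no filter, against 5.21 as reported, and that of the tip factor list ran from 0.57 to 1.31, against 1.07. The median of the mesenchyme markers was -0.027 with no filter, -0.63 at 20 CPM or more and -0.70 without cells with markers of other cell types, and that of the mesothelium markers -0.027 with no filter. Their reported values were -1.40 for Cdkn1a, -1.03 for Cd68, 1.20 for Hbb-y and 1.14 for both lists, and the cause was not tested. Depth limits shares of lowly read genes, since 3 reads are 0.0940 CPM in Cpa1-positive and 0.0571 CPM in Cpa1-low cells.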
